A study of Gallus gallus with 9 samples.

Results

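The comparison described here sets granulosa cells taken at ZT20, the time of the LH surge, against granulosa cells taken at ZT12. It rests on 6 of the 9 libraries of the series, the 3 labelled ZT20 and the 3 labelled ZT12, chosen by their labels, and on all transcripts of the mRNA and lncRNA tables. The cells came from the F1 follicle, the largest preovulatory follicle, of untreated Rohman layers aged 210 days, with 1 library for each hen. ZT12 hens were sampled at 21:00 and ZT20 hens at 5:00, so the LH surge and the time of day cannot be told apart. The 3 ZT0 libraries, taken at 9:00, entered the fit only to share its estimate of the spread and are quoted where they bear on a value.

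Granulosa cells line the follicle on the inside of its basement membrane and carry the receptors for LH in the preovulatory follicle of the hen. LH acts through a G protein-coupled receptor, cAMP and protein kinase A. The surge is known to switch granulosa cells from growth and differentiation towards ovulation, with more progesterone made from cholesterol, remodelling of the extracellular matrix and exit from the cell cycle. Granulosa cells of the hen also make ZP3, a protein of the perivitelline layer that surrounds the oocyte.

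Values are TPM, a measure per length of transcript that is scaled to the same total in every library. TPM can be compared between transcripts but not turned back into the reads behind a value, so no counting error is given. The offset of the lncRNA table was read from its values, as log2(TPM + 2), so a lncRNA listed at its minimum is taken as 0 TPM. A log2 fold change is on the log2(TPM + 1) scale throughout, ZT20 minus ZT12, which understates the change of low transcripts. A transcript was called when its absolute log2 fold change was above 1 and its adjusted p in limma was under 0.05. Both tables together summed to 972378 to 982937 TPM in the 6 libraries. ZT12 replicate 3 stood apart, with the fewest transcripts above 0.1 TPM (11805 mRNAs and 5299 lncRNAs, against 11955 to 12181 and 5908 to 6243 in the other 5). Its median ratio to the mean profile of the 9 libraries was 0.85 for mRNAs and 0.47 for lncRNAs, against 0.93 to 0.99 and 0.83 to 1.20 in the other 5. It and ZT20 replicate 3 were also the libraries farthest from their stage mates (14.2 and 15.9% of TPM placed differently at ZT12, where the other pair differed in 6.96%, and 13.2 and 13.9% at ZT20, where the other pair differed in 8.003%). Both have a higher GC content of reads than their stage mates in the sequencing summary of the study. Gene symbols could be paired with 1823 of the 12479 listed mRNAs, and the others are given by their identifier. ZP3, the leading granulosa product, was the most abundant transcript at both stages. The 4 granulosa markers with a symbol (STAR, ZP3, NR5A1 and NR5A2) summed to 96857 to 116825 TPM at ZT12 and 97922 to 118688 TPM at ZT20. ZP3 made up most of each sum, so the sum does not show the level of the others. STAR was called higher at ZT20, and NR5A1 and NR5A2 were called lower. Markers of other cell types are given after the gene lists, the leukocyte list at 166 to 385 TPM in sum being the highest of them.

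Changes between the stages were widespread and went in both directions. Of 12472 mRNAs tested, 3465 (27.8%) were called, 2001 higher at ZT20 (16%) and 1464 lower (11.7%). Among 7414 lncRNAs, 1541 (20.8%) were called, of which 1185 (16%) were higher and 356 (4.8%) lower. The 3 ZT20 libraries did not overlap the 3 ZT12 libraries for 3443 of the called mRNAs and 1503 of the called lncRNAs, against 61.4% of all tested mRNAs and 45.3% of all tested lncRNAs. A call rests on the same libraries, so this separation is largely built into the rule and is no further support. Of the 2001 higher mRNAs, 1756 also lay above all 3 ZT0 libraries, and 1404 of the 1464 lower ones lay below them, where 45.9% of all tested mRNAs lay on one side of all 6 earlier libraries. For lncRNAs these were 873 of 1185 and 331 of 356, against 29.3% of all. Nearly all called transcripts were already clear of the ZT12 libraries, so much of this contrast is built into the rule too. Of the 7655 tested mRNAs whose ZT20 and ZT12 libraries did not overlap, called or not, 5721 lay on one side of all 6 earlier libraries. For lncRNAs it was 2174 of 3357. The median log2 fold change was 0.08 over all mRNAs and 0.18 over all lncRNAs.

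Large changes were more often rises than falls. A log2 fold change above 3 was seen in 363 called mRNAs and one below -3 in 169. For lncRNAs the numbers were 163 and 26. In all, 88 mRNAs were under 1 TPM in every ZT12 library and above 10 TPM in every ZT20 library, while 26 mRNAs did the reverse. For lncRNAs the counts were 36 and 1. The split of lncRNA calls between higher and lower depended on the scaling of the libraries. It was 826 higher and 618 lower with median ratio scaling and 729 and 704 with quantile normalization, which brought the median of all lncRNAs to 0.01 and -0.01. Without ZT12 replicate 3 it was 964 and 486. For mRNAs quantile normalization gave 1757 higher and 1770 lower, with a median of -0.06. Of the called mRNAs, 3220 were called again in the same direction after quantile normalization and none in the opposite direction, and of the called lncRNAs 1085 were, again with none in the opposite direction.

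The few most abundant transcripts held less of all TPM at ZT20 than at ZT12, and ZT0 libraries were level with ZT20. The 10 most abundant transcripts of a library held 33.5, 34.5 and 38.8% of all TPM at ZT12 and 26.8, 25.5 and 25.8% at ZT20. All ZT20 libraries lay below all ZT12 libraries, with means of 35.6% ± 2.83 and 26.0% ± 0.698 (SD, n = 3 each). The exact two-sided permutation p was 0.1, which 3 against 3 libraries cannot go below. The 100 most abundant held 52.0% ± 3.08 at ZT12 and 43.3% ± 0.438 at ZT20, again without overlap (SD, n = 3 each; exact permutation p = 0.1). The number of transcripts that together held 50% of all TPM was 105, 91 and 57 at ZT12 and 185, 189 and 177 at ZT20. The ZT0 libraries had 27.2, 25.8 and 24.7% in the 10 most abundant and needed 164, 185 and 219 transcripts for 50%. They overlapped the ZT20 libraries and not the ZT12 libraries, so ZT12 was the stage that stood apart. ZT12 replicate 3 was the most concentrated library. Without it and ZT20 replicate 3, which also stood apart, the share of the 10 most abundant was still lower at ZT20, by 7.84 percentage points against 9.57 with all 6 libraries. A large part of this fall goes with 1 mRNA, ENSGALG00000012263, described below. Its own share changed by -5.65 percentage points between the stage means. The shares of the most abundant transcripts were not recomputed without it, so a general loss of concentration was not shown. All lncRNAs together held 12.3% ± 1.90 of TPM at ZT12 and 12.5% ± 0.898 at ZT20, with overlap between the stages (SD, n = 3 each; exact permutation p = 0.9).

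**Figure D1:**
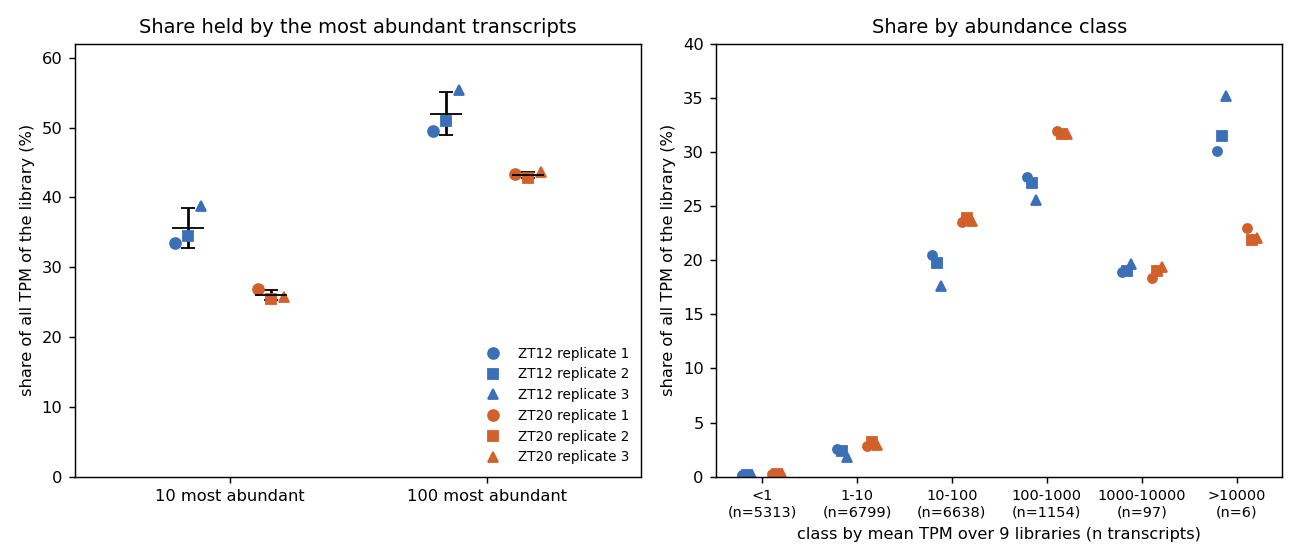
Share of all TPM of a library, in %, held by its 10 and its 100 most abundant transcripts (left, horizontal bars mark the mean and whiskers 1 SD of 3 libraries) and by 6 classes of transcripts by their mean TPM over 9 libraries (right). The 3 ZT20 libraries lie below the 3 ZT12 libraries at 26.8, 25.5 and 25.8% for the 10 most abundant and at 21.9 to 23.0% for the class above 10000 TPM, and above them in the classes from 1 to 1000 TPM.

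Sorted by their mean TPM over the 9 libraries, only 6 transcripts exceeded 10000 TPM, and together they fell from 30.1, 31.5 and 35.2% of all TPM at ZT12 to 23.0, 21.9 and 22.1% at ZT20. The next 97 transcripts, between 1000 and 10000 TPM, held 18.9 to 19.7% and 18.4 to 19.4%, so their stages overlapped. Most of the gain in share lay in the middle of the distribution. Shares of a library have a fixed total, so the fall of the 6 transcripts by itself raises the shares of the other classes. The part this plays in the gain was not tested. The 1154 transcripts between 100 and 1000 TPM went from 25.6 to 27.7% at ZT12 to 31.6 to 32.0% at ZT20, and the 6638 between 10 and 100 TPM from 17.7 to 20.5% to 23.5 to 23.9%. Neither pair of ranges overlapped. Across all transcripts, 27.8% of TPM changed hands between the stage means, counted as the summed gains. Single libraries of different stages differed in 27.1 to 34.1% of their TPM (9 pairs), libraries of the same stage in 6.96 to 15.9% at ZT12 and 8.003 to 13.9% at ZT20 (3 pairs each). The loss was more concentrated than the gain. In all, 36 transcripts accounted for 50% of the loss and 194 for 50% of the gain.

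The 5 transcripts that lost most TPM carried 35.9% of the whole loss, yet a single one of them was called. ENSGALG00000012263, an mRNA not paired with a symbol here, had 51774, 62818 and 126621 TPM at ZT12 and 28721, 37933 and 8622 TPM at ZT20. Its lowest ZT12 library lay above its highest ZT20 library, and its share of all TPM went from 8.21% to 2.56%. Its ZT0 libraries held 37259, 31085 and 24978 TPM and overlapped the ZT20 libraries. Its log2 fold change of -1.82 (standard error (SE) 0.59, limma adjusted p = 0.0244) rested on both libraries numbered 3, which hold its highest and its lowest value. Without ZT12 replicate 3 it was -1.43 and not called (limma adjusted p = 0.0905), without ZT20 replicate 3 -1.17 (adjusted p = 0.117), and without both -0.79 (adjusted p = 0.273). ZP3 had 114848, 109864 and 94922 TPM at ZT12 and 91886, 84106 and 108101 TPM at ZT20, and the stages overlapped (log2 fold change -0.17, SE 0.45, limma adjusted p = 0.767). G13445, the most abundant lncRNA, had 61901, 71629 and 35728 TPM at ZT12 and 46962, 40652 and 46392 TPM at ZT20, with overlap and no call. ENSGALG00000010237 with 34811, 32043 and 42601 TPM at ZT12 and 32664, 29184 and 19573 TPM at ZT20 and the lncRNA G16658 with 18281, 18018 and 32955 TPM at ZT12 and 9862, 10955 and 20587 TPM at ZT20 overlapped as well. G16658 was called only without ZT20 replicate 3, at -1.09 (limma adjusted p = 0.0292).

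Clear falls stood below these. ENSGALG00000050866 had 3766, 3768 and 3685 TPM at ZT12 and 701, 783 and 529 TPM at ZT20 and went from rank 14 to rank 170 among all transcripts, 5.57-fold lower at ZT20. ENSGALG00000031360 had 3803, 3359.9 and 3081 TPM at ZT12 and 608, 528 and 654 TPM at ZT20 and dropped from rank 16 to rank 204. Both were tight among hens and their stages were far apart (log2 fold changes -2.50 and -2.51, limma adjusted p = 1.4e-06 and 2.65e-06). ENSGALG00000034982 had 4535, 4402 and 4580.3 TPM at ZT12 and 2643, 2231 and 2539 TPM at ZT20 and did not overlap, but its log2 fold change of -0.87 missed the fold threshold. ENSGALG00000005948 had 2654, 3078 and 3878 TPM at ZT12 and 1177, 1782 and 1435 TPM at ZT20 and was called at -1.13 (limma adjusted p = 0.00243), a call that was lost narrowly without ZT12 replicate 3 or ZT20 replicate 1, at -0.98 each.

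All 10 transcripts that gained most TPM were called, beside 27.8% of all tested mRNAs, and together they took 13.1% of the whole gain. They were chosen by their gain in these same libraries, so their calls are no further support. STAR, the protein that moves cholesterol to the inner mitochondrial membrane for steroid synthesis, had 1453, 1736 and 1403 TPM at ZT12 and 16462, 13747 and 10507 TPM at ZT20. Its lowest ZT20 library was above its highest ZT12 library by a wide margin, the ratio of the means was 8.87 (log2 fold change 3.13, SE 0.30, limma adjusted p = 1.25e-05), and its mean rank went from 51 to 6. STAR alone took 4.43% of the gain (1.23 percentage points of all TPM) and was the one transcript that entered the 10 most abundant at ZT20. ENSGALG00000051598, at rank 10 at ZT12 and 12 at ZT20, left them. The other members of the 10 most abundant, ENSGALG00000006876, ENSGALG00000035506, ENSGALG00000041143 and ENSGALG00000029583, overlapped between the stages.

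The other large gains came from transcripts at very different levels at ZT12. Among all transcripts at ZT12, ENSGALG00000011623 stood at rank 703, FN1 at 845, ENSGALG00000008231 at 3281 and CDO1 at 5023. ENSGALG00000033535 had 0.260, 0.389 and 0.206 TPM at ZT12 and 3593, 3256 and 3538 TPM at ZT20. It rose from rank 16449 to rank 15, the largest log2 fold change of all mRNAs at 11.40 (SE 0.18, limma adjusted p = 3.08e-10). FN1, fibronectin of the extracellular matrix, had 97.1, 113 and 172 TPM at ZT12 and 2444, 3609 and 2947 TPM at ZT20, 23.5-fold higher at ZT20. Its ZT0 libraries held 460, 970 and 896 TPM, above every ZT12 library and below every ZT20 library. CDO1, the cysteine dioxygenase that starts the breakdown of cysteine, had 23.2, 17.3 and 14.03 TPM at ZT12 and 1985, 1794 and 2162 TPM at ZT20, 109-fold higher. ENSGALG00000008231 went from 32.8, 34.3 and 28.4 TPM to 2297, 2668 and 2828 TPM. ENSGALG00000014442 was already abundant and had 1511, 1565 and 1783 TPM at ZT12 and 4366, 4879 and 4463 TPM at ZT20. ENSGALG00000011623, ENSGALG00000013205, ENSGALG00000013605 and ENSGALG00000016348 lay between 99.9 and 188 TPM in the ZT12 libraries and between 1224 and 3148 TPM in the ZT20 libraries. The stages did not overlap for any of the 10, beside 61.4% of all tested mRNAs, which their choice by the size of the gain largely builds in.

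**Figure D2:**
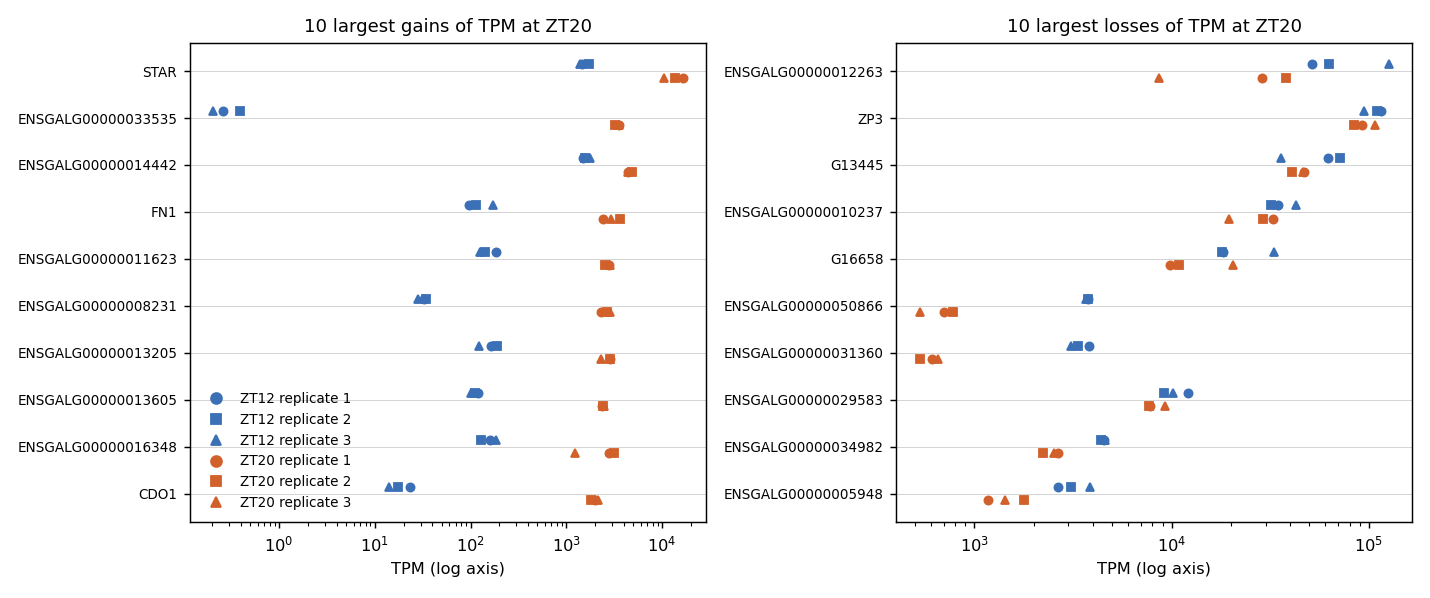
TPM, on a log axis, of the 10 transcripts with the largest gain and the 10 with the largest loss of mean TPM from ZT12 to ZT20, 1 point for each of 6 libraries. STAR stands at 1403 to 1736 TPM at ZT12 and 10507 to 16462 TPM at ZT20, while among the losses the stages of ZP3, G13445, ENSGALG00000010237, G16658 and ENSGALG00000029583 overlap.

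Among mRNAs with a symbol, the 15 largest rises started from low levels. The lowest and the highest of their 45 ZT12 values were 0.0254 and 23.2 TPM. ASL2, of the family of the arginine-making enzyme argininosuccinate lyase and the delta crystallins (chromosome 19, 4919234 to 4928185), had 0.366, 0.379 and 0.321 TPM at ZT12 and 656, 890.1 and 673 TPM at ZT20, a log2 fold change of 9.08 (SE 0.34, limma adjusted p = 2.61e-08). ASL1, its paralog and neighbour on the same chromosome, had 0, 0 and 0.0587 TPM at ZT12 and 6.56, 4.11 and 4.28 TPM at ZT20, and reads that fit both genes leave the split between them uncertain. The amino acid transporter gene SLC6A17 (chromosome 26, 1342526 to 1349149) had 0.0989, 0.0528 and 0.0254 TPM at ZT12 and 224, 139.7 and 111 TPM at ZT20. HVCN1, a voltage-gated proton channel (chromosome 15, 6026586 to 6036124), had 1.80, 2.70 and 2.49 TPM at ZT12 and 413, 543 and 404 TPM at ZT20. In none of the 3 did the stages come near each other, although the ZT20 hens spread widely for SLC6A17.

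TTYH3, a membrane channel protein of the tweety family (chromosome 14, 3249590 to 3315833), had 10.7, 10.9 and 2.601 TPM at ZT12 and 877, 761 and 832 TPM at ZT20, a log2 fold change of 6.69 (SE 0.41, limma adjusted p = 5.69e-07). HS6ST1, which adds sulfate to heparan sulfate chains, had 0.845, 2.99 and 0.590 TPM at ZT12 and 179, 244 and 256 TPM at ZT20. IPMK, an inositol phosphate kinase, had 3.99, 5.37 and 3.25 TPM at ZT12 and 357, 411 and 468 TPM at ZT20. The small GTPase ARL10 had 4.63, 3.84 and 2.10 TPM at ZT12 and 401, 279 and 314 TPM at ZT20. In each of these genes every ZT20 library was above every ZT12 library, which the rule that chose them required.

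Signalling genes made up part of the same group. WNT7A, a Wnt ligand, had 0.294, 0.0680 and 0.0931 TPM at ZT12 and 79.1, 47.6 and 33.0 TPM at ZT20. DRAXIN, a secreted antagonist of Wnt signalling, had 0.604, 0.511 and 1.92 TPM at ZT12 and 120.2, 65.5 and 60.8 TPM at ZT20. TSKU, a secreted inhibitor of BMP and Wnt signalling, had 0.532, 3.07 and 1.06 TPM at ZT12 and 91.1, 68.3 and 84.6 TPM at ZT20. WNT7A thus rose together with secreted inhibitors of the same pathway. RASGEF1A, an exchange factor for Ras, had 0.929, 1.82 and 0.475 TPM at ZT12 and 104, 105 and 112 TPM at ZT20, and its ZT0 libraries held 2.76, 4.06 and 49.9 TPM. The cochaperone DNAJC12 rose by 4.98, the SHC-binding protein SHCBP1 by 4.93 and the dipeptidase DPEP2 by 4.85 on the log2 scale. DPEP2 had 0.352, 0.763 and 0.197 TPM at ZT12 and 4.10, 7.89 and 13.6 TPM at ZT0. The mRNAs by identifier with the largest rises were ENSGALG00000033535, given above, ENSGALG00000040355 with 0.0597, 0.253 and 0.0269 TPM at ZT12 and 1242, 1475 and 1882 TPM at ZT20, and ENSGALG00000042744 with 1.12, 3.44 and 0.849 TPM at ZT12 and 1998, 1968 and 1323 TPM at ZT20.

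The largest falls among mRNAs with a symbol did not reach the size of the largest rises. RHOC, a small GTPase that acts on the actin cytoskeleton (chromosome 26, 3550497 to 3556153), had 62.5, 73.0 and 73.9 TPM at ZT12 and 2.10, 1.55 and 0.408 TPM at ZT20, a log2 fold change of -4.98 (SE 0.26, limma adjusted p = 1.7e-07). SRC, the membrane-bound tyrosine kinase (chromosome 20, 5211688 to 5221420), had 30.1, 33.2 and 41.8 TPM at ZT12 and 0.598, 0.871 and 0.383 TPM at ZT20. PLCG1, phospholipase C gamma, which tyrosine kinases activate (chromosome 20, 5046400 to 5076441), had 18.04, 21.0 and 35.1 TPM at ZT12 and 1.20, 0.923 and 0.800 TPM at ZT20. The adaptor TRAF4 had 53.0, 42.5 and 51.8 TPM at ZT12 and 1.76, 1.81 and 3.06 TPM at ZT20. All 4 were at 3.06 TPM or less in every ZT20 library.

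SKP2, the substrate receptor of a ubiquitin ligase that removes inhibitors of the cell cycle (chromosome Z, 10979414 to 10990078), was the most abundant of the 15 at ZT12 by its mean and had 470.3, 476 and 373 TPM at ZT12 and 33.4, 33.5 and 42.4 TPM at ZT20. NR5A2, a nuclear receptor that drives steroidogenic genes (chromosome 8, 1594195 to 1668981), had 366, 316 and 316 TPM at ZT12 and 24.4, 38.0 and 36.8 TPM at ZT20 and was 10.1-fold lower at ZT20. CRIP1, a small LIM domain protein, had 131, 223 and 447 TPM at ZT12 and 11.9, 16.9 and 18.1 TPM at ZT20, with a wide spread at ZT12. PPP1R12B, a targeting subunit of myosin phosphatase, had 80.7, 71.7 and 70.1 TPM at ZT12 and 2.77, 3.19 and 1.73 TPM at ZT20. The endosomal protein PLEKHF1 fell by 3.93, the membrane protein LHFPL2 by 3.91, WSCD2 by 4.71, the phosphatase PPM1J by 3.20, the zinc finger protein ZNF608 by 3.19, the intermediate filament protein SYNC by 3.08 and DBNDD2 by 3.07 on the log2 scale. By identifier, ENSGALG00000034616 fell most, with 1186, 867 and 963 TPM at ZT12 and 5.54, 3.39 and 5.52 TPM at ZT20. ENSGALG00000037402 had 220.3, 300.4 and 138 TPM at ZT12 and 0.845, 2.98 and 1.26 TPM at ZT20 and ENSGALG00000026422 had 220.0, 212 and 255 TPM at ZT12 and 2.31, 1.88 and 2.06 TPM at ZT20.

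**Figure D3:**
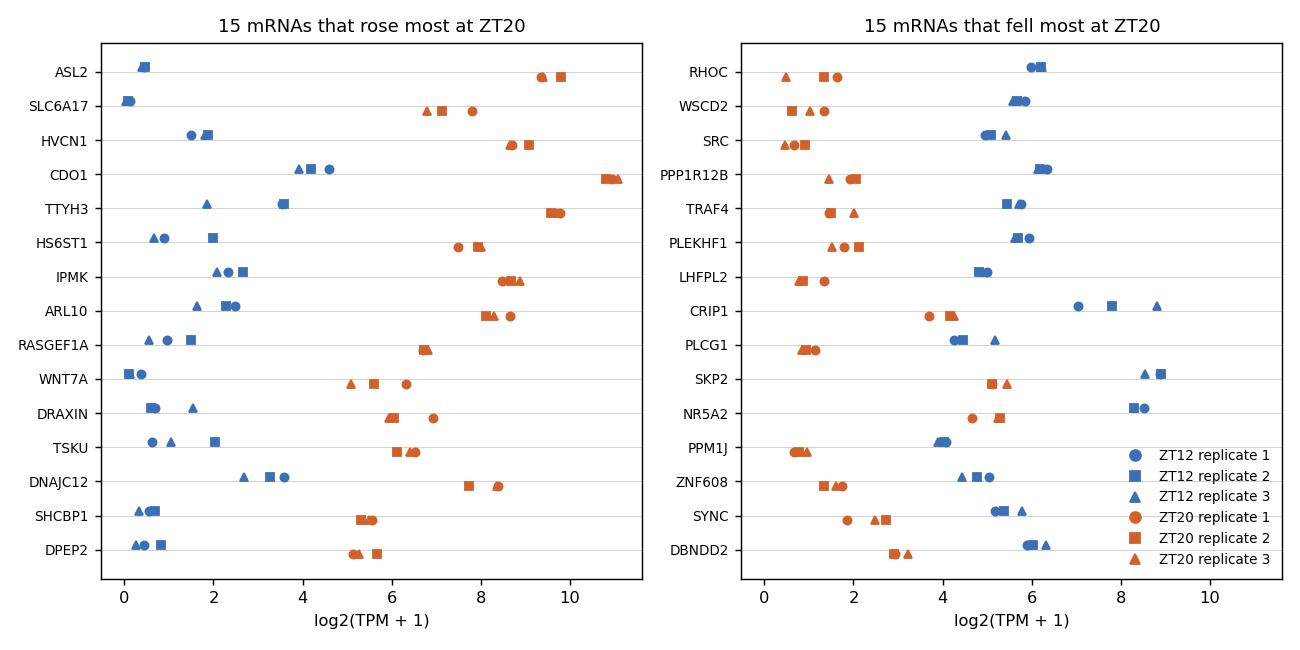
log2(TPM + 1) in each of 6 libraries for the 15 mRNAs with a symbol that rose most and the 15 that fell most at ZT20. ASL2 rose by 9.08 and RHOC fell by 4.98 on this scale, and in none of the 30 do the ZT12 and ZT20 points overlap, which the rule that chose them required.

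Called lncRNAs with the largest rises were nearly silent at ZT12. G3989 had 0, 0.305 and 0.0520 TPM at ZT12 and 106, 152 and 251 TPM at ZT20, a log2 fold change of 7.17 (SE 0.35, limma adjusted p = 1.85e-07). G6488, an intronic lncRNA (chromosome 2, 1820258 to 1820756), had 0, 2.45 and 0.324 TPM at ZT12 and 205, 209 and 238 TPM at ZT20. ENSGALG00000047636 had 0.472, 0 and 0 TPM at ZT12 and 73.7, 81.4 and 293 TPM at ZT20, of which ZT20 replicate 3 is the highest by far, and G11313 had 0.725, 1.94 and 0.870 TPM at ZT12 and 171, 238 and 231 TPM at ZT20. G6179, intronic as well (chromosome 19, 5088661 to 5101281), is listed at 0 in all ZT12 and ZT0 libraries and had 65.9, 111 and 113 TPM at ZT20, so no fold is given. G4513 had 4.41, 4.91 and 0.675 TPM at ZT12 and 385, 444 and 220.4 TPM at ZT20.

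Falls among lncRNAs were fewer and less even. G13736 had 246, 133 and 33.4 TPM at ZT12 and 0, 0 and 0.767 TPM at ZT20, a log2 fold change of -6.43 (SE 0.59, limma adjusted p = 7.35e-06), with ZT12 replicate 3 far below its stage mates. G9266, antisense to an exon (chromosome 23, 5269094 to 5270803), had 95.5, 106 and 113 TPM at ZT12 and 1.86, 2.66 and 4.48 TPM at ZT20, and ENSGALG00000045740 had 326, 383 and 333 TPM at ZT12 and 12.8, 14.8 and 14.5 TPM at ZT20, both tight at ZT12. G18711 had 146, 83.4 and 33.2 TPM at ZT12 and 0, 4.17 and 5.18 TPM at ZT20, G18066 214, 171 and 54.9 TPM at ZT12 and 3.05, 7.001 and 7.42 TPM at ZT20 and G14067 42.1, 32.8 and 16.8 TPM at ZT12 and 0.471, 1.07 and 0.471 TPM at ZT20. In these 3, as in G13736, ZT12 replicate 3 was the lowest ZT12 library but stayed above every ZT20 library.

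The study followed some transcripts by qPCR, and their primers are given here from 5′ to 3′ as the study lists them. The primers were not aligned to any transcript. They are shown for STAR, for TTYH3 and the lncRNA G4510 that was followed with it, and for the lncRNA G13560.
STAR forward: agtaccccattgaacacggt
STAR reverse: atacatggctggggtgttga
TTYH3 forward: agtgctggaattgctgttgg
TTYH3 reverse: ttggctctgctgtttggttc
G4510 forward: tgctgctgttctgtctctca
G4510 reverse: atctctcctgctgcttggtt
G13560 forward: atggaagtcagaaggtgcca
G13560 reverse: caactctgagcactgcactg
G4510 had 4.03, 5.97 and 0.736 TPM at ZT12 and 379, 343 and 303 TPM at ZT20, a log2 fold change of 6.44 (SE 0.47, limma adjusted p = 1.4e-06), close to the 6.69 of TTYH3. G13560 had 57.1, 46.6 and 16.5 TPM at ZT12 and 292, 246 and 218 TPM at ZT20, G17003 0.274, 0.754 and 0.0991 TPM at ZT12 and 34.2, 74.4 and 38.5 TPM at ZT20, and G5405 (chromosome 17, 686656 to 740597, antisense) 11.9, 11.9 and 4.14 TPM at ZT12 and 83.5, 105 and 58.2 TPM at ZT20. All 4 lncRNAs were higher in every ZT20 library than in every ZT12 library. TRAF1, in the primer list where the text of the study has TRAF2, moved the other way. It had 1.41, 2.17 and 1.67 TPM at ZT12 and 0.700, 0.445 and 0.360 TPM at ZT20. The stages did not overlap, but the log2 fold change of -0.87 missed the fold threshold. The study picked these transcripts with the same libraries in hand, and their direction in these libraries adds no independent evidence. Separately, the study reports qPCR patterns like those of its RNA-seq. It also reports that LH raised G13560 and STAR in cultured granulosa cells. Those measurements were not examined here.

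The gene lists were drawn from the symbols at hand, so they cover part of each pathway, and a list with all members measured is not a complete one. Their members were chosen with earlier results of these data known. A share that differs from that of all mRNAs therefore cannot be told apart from the choice of members. Their members are read against the 16% of all mRNAs called higher and the 11.7% called lower. In the steroidogenesis and cholesterol list 17 of 34 genes had a symbol in the tables. Of these 3 were higher (STAR, CETP and SLC27A4) and 3 lower (NR5A1, NR5A2 and POR), with a median log2 fold change of -0.03. NR5A1, the nuclear receptor that with NR5A2 drives steroidogenic genes, had 158, 161 and 216 TPM at ZT12 and 52.5, 31.6 and 43.1 TPM at ZT20. POR, which passes electrons to P450 enzymes of the endoplasmic reticulum, had 124, 128 and 97.0 TPM at ZT12 and 32.1, 30.2 and 17.9 TPM at ZT20. STAR thus rose while both nuclear receptors and this reductase fell, each without overlap between the stages. At ZT0, NR5A1 had 261, 316 and 350 TPM and NR5A2 428, 429 and 471 TPM. Both were thus already lower at ZT12 than in every ZT0 library, while STAR and POR overlapped between ZT0 and ZT12. SLC27A4, a fatty acid transporter, went from 10.1, 14.6 and 16.5 to 40.9, 32.3 and 28.0 TPM. CETP, a carrier of cholesterol esters, was near 0 at both stages (0.0846, 0.295 and 0.0610 TPM at ZT12 and 1.68, 1.23 and 1.21 TPM at ZT20), and its call was lost without ZT12 replicate 3 (log2 fold change 0.99) or without ZT20 replicate 1 (0.96). DHCR7, the last enzyme of cholesterol synthesis, had 606 ± 73.4 and 950.4 ± 31.6 TPM (SD, n = 3 each) and SOAT1, which stores cholesterol as esters, 420.2 ± 14.9 and 312 ± 15.7. Neither passed the fold threshold.

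For gonadotropin, cAMP and G protein signalling, 33 of 41 genes were measured, 7 higher and 5 lower, with a median of 0.04 (-0.15 after quantile normalization). RAMP1, a partner of the calcitonin receptor family, had 17.8, 15.1 and 13.2 TPM at ZT12 and 172, 149 and 191 TPM at ZT20. Its partner receptor CALCRL had 1.504 ± 0.646 and 1.60 ± 0.726 TPM (SD, n = 3 each), without a call. CAMKK1, a kinase that acts on other calcium-dependent kinases, had 0.187, 0.148 and 0.0282 TPM at ZT12 and 12.9, 15.96 and 16.7 TPM at ZT20. RGS1, which ends G protein signals, is listed at 0 in all ZT12 and ZT0 libraries and had 5.09, 14.1 and 13.6 TPM at ZT20, and RGS4, of the same family, had 0.0425, 0.118 and 0.0191 TPM at ZT12 and 11.1, 8.35 and 10.1 TPM at ZT20. Among the receptors that fell, ADCYAP1R1, which raises cAMP, had 22.9, 21.0 and 15.3 TPM at ZT12 and 3.96, 1.72 and 3.20 TPM at ZT20, and S1PR1 had 20.4, 12.3 and 15.3 TPM at ZT12 and 2.88, 2.91 and 1.97 TPM at ZT20. The ligand EDN2 had 1.63, 9.73 and 2.30 TPM at ZT12 and 0.246, 0.619 and 0.275 TPM at ZT20 and the prolactin receptor PRLR 87.8, 46.4 and 50.7 TPM at ZT12 and 38.9, 49.4 and 56.2 TPM at ZT20, the latter with overlap. The regulatory subunits of protein kinase A with a symbol were not called, with 78.6 ± 10.7 and 114 ± 17.03 TPM for PRKAR1A (SD, n = 3 each).

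Of 46 genes for growth factors, receptor tyrosine kinases and MAPK, 40 were measured, 8 higher and 7 lower, with a median of -0.05. Among ligands, PDGFA had 11.6, 11.8 and 10.96 TPM at ZT12 and 155, 84.1 and 97.9 TPM at ZT20, FGF18 had 1.94, 2.59 and 1.63 TPM at ZT12 and 8.11, 13.3 and 12.3 TPM at ZT20 and HBEGF had 0.0420, 0.227 and 0.207 TPM at ZT12 and 3.57, 1.23 and 0.662 TPM at ZT20. The ZT0 libraries of PDGFA held 37.4, 33.6 and 50.2 TPM, above every ZT12 library and below every ZT20 library. HBEGF stayed low, and its call was lost without ZT20 replicate 1 (log2 fold change 0.74). Among signal carriers, MAPKAPK2, a kinase below p38, had 117, 109 and 138 TPM at ZT12 and 759, 662 and 177 TPM at ZT20, where ZT20 replicate 3 stood near the ZT12 level. RGL1, an exchange factor for Ral, had 16.4, 22.0 and 20.6 TPM at ZT12 and 95.5, 139 and 85.1 TPM at ZT20. SRC and PLCG1, described above, and the adaptor SH2B3 with 8.54, 8.34 and 4.76 TPM at ZT12 and 0.336, 0.498 and 1.03 TPM at ZT20 led the falls. MAP2K2 and MAPK3 of the MAPK cascade had log2 fold changes of 0.07 and 0.50 and were not called.

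The list for prostaglandins, cytokines and NF-kB had 30 of 34 genes measured, 4 higher and 7 lower (23.3% of its tested members), with a median of 0.00. PTGS1, a cyclooxygenase, had 0.568, 0.374 and 0.744 TPM at ZT12 and 3.50, 3.31 and 3.87 TPM at ZT20. PLA2G4A, which frees arachidonic acid for it, had 39.1, 36.3 and 25.7 TPM at ZT12 and 17.4, 25.1 and 22.3 TPM at ZT20, lower without overlap but short of the fold threshold at -0.61. LIFR, a receptor of the interleukin 6 family, had 19.7, 11.2 and 15.1 TPM at ZT12 and 66.5, 72.5 and 78.5 TPM at ZT20. TRIM25, a ubiquitin ligase, had 25.2, 25.7 and 25.6 TPM at ZT12 and 97.0, 89.0 and 89.5 TPM at ZT20. Besides TRAF4, MLKL, the effector of necroptosis, fell from 3.40, 3.58 and 1.65 to 0.501, 0.182 and 0.400 TPM and the chemokine-like CMTM3 from 39.2, 41.4 and 40.4 to 11.9, 13.5 and 17.9 TPM.

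The shares of extracellular matrix genes and of proteases called higher were 29.0% and 32.0%, beside 16% of all mRNAs, and the difference was not tested. Members of both lists were chosen with earlier results of these data known. Of the 31 matrix genes listed 9 were higher and 3 lower, with a median of 0.53, the highest of the 19 lists. It stayed above 0 with median ratio scaling (0.46) and quantile normalization (0.29). Beside FN1 and HS6ST1, PCOLCE2, an enhancer of procollagen processing, had 4.89, 3.42 and 9.05 TPM at ZT12 and 78.4, 42.5 and 68.1 TPM at ZT20. FRZB, a secreted Wnt antagonist listed here, had 179, 59.6 and 141 TPM at ZT12 and 737, 849.6 and 876 TPM at ZT20. NDST1, which like HS6ST1 modifies heparan sulfate but moved the other way, had 56.3, 56.8 and 95.8 TPM at ZT12 and 7.65, 7.59 and 7.29 TPM at ZT20. The matrix glycoprotein TNN fell from 65.4, 58.2 and 41.7 to 10.7, 10.4 and 10.2 TPM and CSGALNACT2, of chondroitin sulfate synthesis, from 41.5, 31.6 and 29.5 to 11.5, 16.7 and 9.54 TPM. SPARC, abundant at both stages, had 1996 ± 287 and 1851 ± 369.8 TPM (SD, n = 3 each).

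Of the proteases and their inhibitors, 25 of 26 were measured, 8 higher and 4 lower, with a median of 0.25. LVRN, an aminopeptidase, had 1.41, 1.20 and 0.439 TPM at ZT12 and 12.96, 12.7 and 17.2 TPM at ZT20. ADAM19, a membrane metalloprotease, had 0, 0.0458 and 0 TPM at ZT12 and 5.43, 4.34 and 3.55 TPM at ZT20. ADAM9 had 33.5, 31.6 and 47.6 TPM at ZT12 and 5.97, 5.83 and 4.31 TPM at ZT20 and ADAM10 130.3, 107 and 87.1 TPM at ZT12 and 41.7, 46.4 and 45.6 TPM at ZT20, so members of the ADAM family moved in both directions. PLAU, the urokinase plasminogen activator, had 6.03, 8.90 and 5.31 TPM at ZT12 and 1.19, 0.501 and 0.288 TPM at ZT20. PLAT, the tissue activator, had 1.92, 2.44 and 2.49 TPM at ZT12 and 1.60, 1.49 and 1.63 TPM at ZT20 without a call. PLAU had 30.5, 20.5 and 3.32 TPM in the ZT0 libraries, and its call was lost without the libraries numbered 3 of both stages (log2 fold change -2.20, limma adjusted p = 0.0664). The serpins SERPINE2, SERPINF1 and SERPINC1 rose by 1.29, 1.46 and 1.41.

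**Figure D4:**
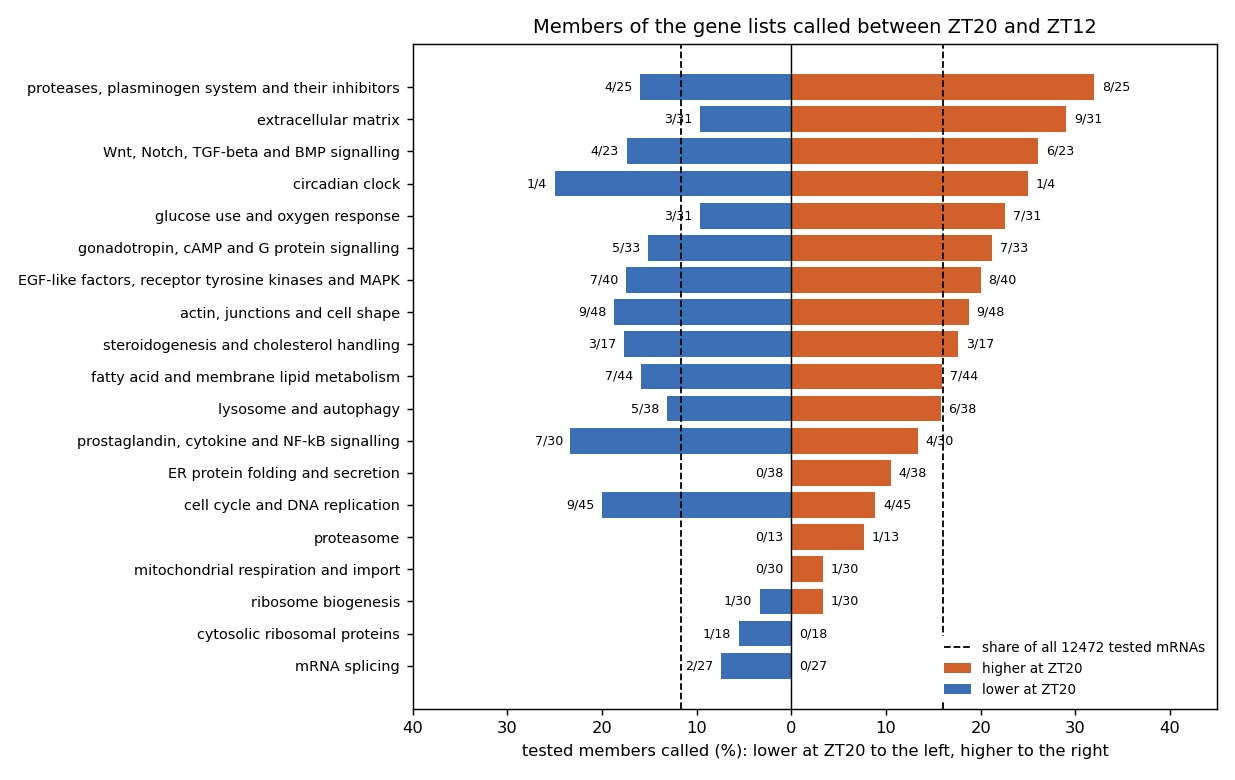
Share of the tested members of 19 gene lists, in %, called higher (right) or lower (left) at ZT20, with the counts beside the bars and dashed lines at the shares of all 12472 tested mRNAs, 16% and 11.7%. Proteases (8 of 25) and extracellular matrix (9 of 31) reach furthest to the right, and mitochondrial, ribosomal and splicing genes have few called members on either side. List members were chosen with earlier results of these data known.

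In the list for glucose use and the response to oxygen, 31 genes of 35 were tested, 7 higher and 3 lower, with a median of 0.38. The rising members named below were not glycolytic enzymes. CITED4, a transcriptional coregulator, had 15.2, 17.5 and 10.3 TPM at ZT12 and 141, 177 and 171 TPM at ZT20, with 28.0, 71.5 and 287 TPM at ZT0, where 1 library was above every ZT20 library. The secreted glycoprotein STC2 had 3.99, 3.67 and 5.21 TPM at ZT12 and 35.4, 41.4 and 46.7 TPM at ZT20. ALAS1, the first enzyme of heme synthesis, had 237, 419 and 289.9 TPM at ZT12 and 1469.7, 1369.6 and 1606 TPM at ZT20. The glucose transporter SLC2A1 went from 6.43, 5.47 and 7.94 to 27.6, 28.3 and 11.7 TPM, with 6.50, 16.1 and 27.1 TPM at ZT0. Its call was lost without ZT12 replicate 2, ZT20 replicate 1 or ZT20 replicate 2 (limma adjusted p = 0.0526, 0.0591 and 0.0625). The 3 lower members are enzymes of glycolysis. Enzymes of glycolysis not paired with a symbol here were not read, so these values do not give the direction of the pathway. HK1 had 47.3, 43.6 and 44.7 TPM at ZT12 and 10.2, 8.61 and 5.47 TPM at ZT20, GPI had 354, 327 and 404 TPM at ZT12 and 84.4, 62.6 and 59.6 TPM at ZT20 and ENO1 had 1104, 987 and 844 TPM at ZT12 and 567, 519 and 248 TPM at ZT20. Without ZT20 replicate 3 the log2 fold change of ENO1 was -0.84 and the call was lost.

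Fatty acid and membrane lipid genes went both ways, 7 higher and 7 lower of 44 measured. Diacylglycerol kinases, which turn diacylglycerol into phosphatidic acid, were among the rises. DGKQ had 6.18, 3.98 and 3.19 TPM at ZT12 and 139, 163 and 141 TPM at ZT20 and DGKE 15.98, 15.5 and 12.1 TPM at ZT12 and 52.6, 58.0 and 55.5 TPM at ZT20, and DGKD rose by 1.32. ACSL3, which activates fatty acids, had 31.2, 25.2 and 24.1 TPM at ZT12 and 220.4, 148 and 164 TPM at ZT20. The falls were led by other functions. PPARG, a lipid-sensing nuclear receptor, had 62.6, 66.1 and 53.4 TPM at ZT12 and 15.9, 9.97 and 14.9 TPM at ZT20, TAMM41, of cardiolipin synthesis, 28.2, 28.6 and 22.9 TPM at ZT12 and 6.23, 3.44 and 4.79 TPM at ZT20, and the adipokine gene C1QTNF12 27.0, 15.2 and 32.3 TPM at ZT12 and 3.03, 3.41 and 2.36 TPM at ZT20.

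Autophagy genes held the largest rises of the lysosome list, in which 6 of 38 were higher and 5 lower. These shares, 15.8% and 13.2%, were near the 16% and 11.7% of all mRNAs. ULK1, the kinase that starts autophagy, had 9.97, 9.27 and 7.87 TPM at ZT12 and 250.0, 212 and 168 TPM at ZT20, while its paralog ULK2 had 60.7, 59.2 and 51.9 TPM at ZT12 and 20.6, 27.1 and 26.0 TPM at ZT20 and fell by 1.19. VMP1, needed for autophagosome formation, had 22.8, 20.8 and 20.6 TPM at ZT12 and 193, 236 and 153 TPM at ZT20. PSAP, the precursor of lysosomal saposins, had 1677, 1295 and 1357 TPM at ZT12 and 3299, 3338 and 3239.7 TPM at ZT20. RILP, of lysosome transport, rose by 1.73, and NCOA4, the ferritin receptor of autophagy, and NRBF2 fell by 1.21 and 1.21. WIPI1 rose by 1.41 and its paralog WIPI2 fell by 1.31. Without ZT20 replicate 3 the log2 fold change of WIPI2 was -0.93 and the call was lost. Of 38 genes for folding and secretion in the endoplasmic reticulum 4 were called, each of them higher (10.5%, below the 16% of all mRNAs called higher). TXNDC11 had 13.5, 15.4 and 11.9 TPM at ZT12 and 112, 83.3 and 147 TPM at ZT20 and the Golgi SNARE GOSR1 29.4, 29.6 and 27.2 TPM at ZT12 and 125, 114 and 118 TPM at ZT20. SVIP rose by 1.40, a call lost without both libraries numbered 3 (log2 fold change 1.15, limma adjusted p = 0.105). HSPA5, the main chaperone there, had 1112 ± 20.1 and 1311 ± 204 TPM (SD, n = 3 each).

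Housekeeping complexes had few calls but not all stayed level. Of 18 cytosolic ribosomal proteins 17 had a negative log2 fold change, with a median of -0.51 (-0.58 with median ratio scaling and -0.65 with quantile normalization), and a single one, RPS10, was called. Between the stages 13 of the 18 did not overlap (72.2%, beside 61.4% of all tested mRNAs). RPS10 had 1267, 1442 and 2095 TPM at ZT12 and 742, 1046 and 498 TPM at ZT20, and its call was lost without ZT12 replicate 3 (-0.89) or ZT20 replicate 3 (-0.83). Among 30 genes of ribosome biogenesis NOL11 was higher (38.9 to 118 TPM) and NPM1, nucleophosmin, lower (371 to 156 TPM), with a median of 0.20. Of 30 mitochondrial genes only MCU, the calcium uniporter, was called, with 39.1, 41.6 and 29.7 TPM at ZT12 and 237, 169.7 and 256 TPM at ZT20. Of 13 proteasome genes only PSMA4 was, at 1.18, and not after quantile normalization (0.94) or rescaling without the 10 most abundant transcripts (0.99). Of 27 splicing genes KHDRBS1 (78.4 to 11.9 TPM) and HNRNPH3 (80.3 to 39.8 TPM) were lower, HNRNPH3 not without ZT20 replicate 3 (-0.72).

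Of 45 cell cycle genes 9 were lower and 4 higher, with a median of -0.01. The lower ones include SKP2, CDC45 of the replicative helicase with 13.95, 7.16 and 6.30 TPM at ZT12 and 0.586, 0.651 and 0.755 TPM at ZT20, SKA2 of the kinetochore with 35.5, 38.7 and 32.2 TPM at ZT12 and 4.94, 6.96 and 5.797 TPM at ZT20, the G1 cyclins CCNE1 and CCND3, which fell by 1.57 and 1.75, and TOP2A, which fell by 1.81. The higher ones were SHCBP1, ORC6 of the origin recognition complex with 11.3, 9.54 and 9.54 TPM at ZT12 and 54.6, 40.2 and 71.9 TPM at ZT20, ANAPC5 and TRAIP. CDK1 (0.964 to 2.30 TPM) and its partner CCNB1 (15.5 to 10.03 TPM), which drive mitosis, were not called.

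Genes of actin, junctions and cell shape split evenly, 9 higher and 9 lower of 48, with a median of -0.20. RHOC fell while RHOA and CDC42, of the same family, had log2 fold changes of -0.14 and -0.45 and no call. VCL, vinculin of adhesion sites, had 27.0, 25.5 and 29.0 TPM at ZT12 and 5.54, 6.76 and 3.50 TPM at ZT20, and the motor MYO1E 11.95, 7.96 and 7.57 TPM at ZT12 and 1.21, 0.746 and 0.764 TPM at ZT20. Both fell without overlap. In the same family MYO1D had 1.41, 1.12 and 2.32 TPM at ZT12 and 13.5, 32.9 and 10.5 TPM at ZT20. PLS1, which bundles actin filaments, had 1.54, 1.30 and 1.31 TPM at ZT12 and 47.6, 31.1 and 39.2 TPM at ZT20, and RFLNB, a partner of filamin, 0, 0.754 and 0.106 TPM at ZT12 and 8.79, 9.00 and 4.02 TPM at ZT20.

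Of 15 circadian genes only 4 had a symbol in the tables. HLF, a transcription factor that the clock controls, had 7.53, 6.25 and 6.14 TPM at ZT12 and 46.0, 45.4 and 37.0 TPM at ZT20, with 11.4, 17.1 and 31.0 TPM at ZT0. RORA, a nuclear receptor of the clock loop, had 16.05, 18.6 and 11.3 TPM at ZT12 and 3.41, 2.47 and 3.39 TPM at ZT20. PER3 had 2.09, 1.21 and 1.11 TPM at ZT12 and 1.07, 1.25 and 1.21 TPM at ZT20, with overlap, and CSNK1D, the kinase of PER proteins, rose without overlap but below the fold threshold (0.63).

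Among 23 genes of Wnt, Notch, TGF-beta and BMP signalling 6 (26.1%) were higher and 4 (17.4%) lower, with a median of -0.28. Beside WNT7A and TSKU, the Notch ligase MIB2 had 14.8, 17.03 and 13.96 TPM at ZT12 and 204, 174 and 187 TPM at ZT20 and SKI, a corepressor of TGF-beta signalling, 25.0, 26.7 and 22.2 TPM at ZT12 and 265, 278 and 214 TPM at ZT20. NOG, a secreted BMP antagonist, had 18.3, 18.6 and 14.5 TPM at ZT12 and 2.12, 1.99 and 3.11 TPM at ZT20, and CXXC5 7.10, 13.3 and 5.204 TPM at ZT12 and 1.02, 0.926 and 0.475 TPM at ZT20. Antagonists of BMP thus went both ways, TSKU up and NOG down. PYGO1, a coactivator of Wnt targets, fell from 5.89, 6.46 and 3.87 to 0.596, 0.845 and 0.405 TPM. SOX9 is listed at 0 in all ZT12 libraries and stayed low at ZT20, with 1.25, 2.38 and 0.303 TPM.

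Markers of other cell types were detected at levels that differed between the lists, and some moved with the stage. In bulk samples fewer cells of a type and less RNA per cell cannot be told apart. Both endothelial markers with a symbol, of 7 listed, fell, CLDN5 with 14.2, 14.6 and 19.3 TPM at ZT12 and 4.16, 5.02 and 5.15 TPM at ZT20 and S1PR1 with the values above. Their summed level was 26.9 to 34.7 TPM at ZT12 and 7.04 to 7.94 TPM at ZT20. CLDN5 had 42.3, 24.5 and 74.5 TPM at ZT0 and was thus already lower at ZT12. S1PR1 had 16.9, 15.6 and 15.8 TPM at ZT0, within its ZT12 range. The 12 leukocyte genes summed to 244 to 385 TPM at ZT12 and 166 to 221 TPM at ZT20, most of it from FYB, with 213, 202 and 187 TPM at ZT12 and 149, 157 and 116 TPM at ZT20, and CD74, with 136, 51.2 and 34.3 TPM at ZT12 and 31.2, 30.6 and 17.9 TPM at ZT20. Of them 2 were higher (CARD9 and UNC13D) and 2 lower (CD74 and IKZF2), and the call of CD74 was lost in 5 of the 6 fits that leave out a ZT12 or ZT20 library. PTPRC, BTK and DOCK2 were under 1 TPM in all 6 libraries. BLB1, DMA, FASLG and TNFRSF18 were not called. CARD9 had 3.21, 2.71 and 1.54 TPM at ZT12 and 5.23, 6.61 and 6.57 TPM at ZT20, with 7.95, 6.31 and 6.99 TPM at ZT0, and its call was lost without ZT12 replicate 3 (0.85). The 7 striated muscle genes summed to 66.9 to 72.5 and 22.8 to 27.6 TPM, most of it at ZT12 from MYL2, with 57.2, 65.1 and 63.8 TPM at ZT12 and 5.31, 8.94 and 8.09 TPM at ZT20. MYOZ1 fell as well, whereas LDB3, MYLK3 and TNNI1 rose and TNNC1 and TNNT2 were not called. Theca and fibroblast genes were at 3.50 to 4.95 and 3.64 to 4.63 TPM in sum over TWIST2 and COL6A3, and the smooth muscle genes MYOCD and KCNMB1 at 0.24 to 0.49 and 0.29 to 1.12 TPM. Of 4 germ cell genes ZP2 was under 0.1 TPM in all 6 libraries, PIWIL1 rose from 0.696, 0.431 and 0.263 to 6.72, 7.41 and 5.86 TPM, and GTSF1 and KLHL10 overlapped. No red blood cell marker had a symbol. The part of these cells in the results was not tested.

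Among mRNAs with a known position, called neighbours on a chromosome mostly moved in the same direction. The pattern was looked for after the values had been seen. Positions, on the Ensembl Gallus_gallus v6.0 genome, were known for 1997 of the tested mRNAs, of which 525 were called (26.3%), 320 higher and 205 lower. Each was paired with the next listed mRNA on its chromosome, although mRNAs not listed may lie between. Most pairs with both mRNAs called lie on chromosomes 6 to 28 and Z, so the pattern was not shown for the whole genome. Of the pairs with less than 100 kb between them, 137 had both mRNAs called, and in 114 of these (83.2%) both moved in the same direction, 79 up and 35 down. Of all pairs of called mRNAs on different chromosomes 52.3% share their direction. The share fell with distance, from 32 of 35 pairs with a gap under 5 kb (91.4%) and 38 of 44 at 5 to 20 kb (86.4%) to 38 of 51 at 20 to 100 kb (74.5%) and 15 of 32 beyond 100 kb (46.9%). Pairs that share an mRNA are not independent, so no test is given. Over all 1643 pairs under 100 kb, called or not, 58.7% had the same sign.

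Named genes appear among these pairs. RHOC (chromosome 26, 3550497 to 3556153) and PPM1J (chromosome 26, 3558025 to 3564463) lie 1871 bases apart and fell by 4.98 and 3.20 on the log2 scale. On chromosome 11, MYLK3, ORC6, VPS35, ENSGALG00000004428 and SHCBP1 follow each other between 7921125 and 8002145 (VPS35 and ENSGALG00000004428 overlap by 3314 bases), and rose by 1.50, 2.31, 1.75, 4.55 and 4.93. SIRT1 and DNAJC12 on chromosome 6 rose by 2.61 and 4.98, HVCN1 and PPP1CC on chromosome 15 by 7.09 and 3.63, and ARL10 and KIAA1191 on chromosome 13 by 6.23 and 3.43. These pairs were chosen after their values were seen. Some neighbours parted. TOP1 rose by 1.05 beside PLCG1, which fell by 3.65, and RASGEF1A rose by 5.75 beside CSGALNACT2, which fell by 1.39. Other called neighbours overlap too. STAR overlaps its neighbour ASH2L by 50 bases and POR overlaps TMEM120A by 116 bases, and 7 called pairs overlap in all. Reads of overlapping genes can be split between them, and without the overlapping pairs 108 of 130 moved in the same direction.

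**Figure D5:**
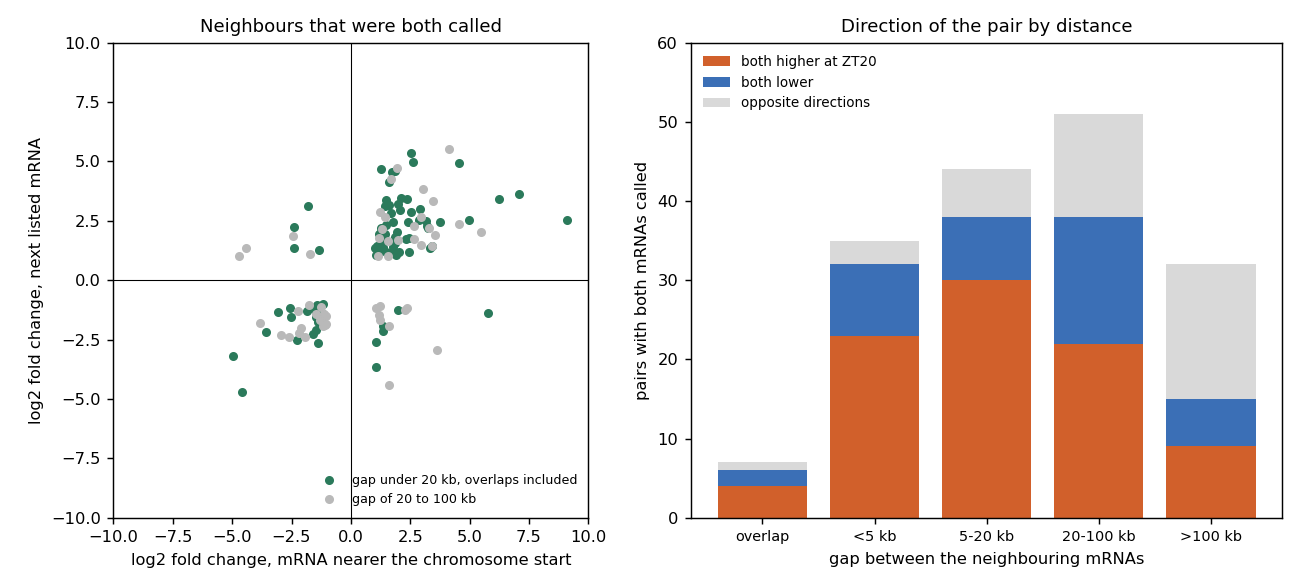
Left, log2 fold change, ZT20 minus ZT12, of neighbouring mRNAs less than 100 kb apart that were both called, the mRNA nearer the chromosome start on the x axis and the next listed one on the y axis. Right, number of pairs of called neighbours on one chromosome by the gap between them and by direction, with 32 of 35 pairs under 5 kb and 15 of 32 pairs beyond 100 kb in the same direction.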

How the data were processed

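RNA-seq covered F1 granulosa cells of 9 hens, 3 each at ZT0, ZT12 and ZT20. According to the methods and the submitters' processing notes, the authors mapped reads with STAR 2.6.0c to Ensembl Gallus_gallus v6.0, assembled lncRNAs with Cufflinks (2.2.1 in the notes, another version in the methods) and quantified with Kallisto, whether by strand is not given in the sources used here. They deposited log2 values, log2(TPM + 1) for mRNAs, with no transform named for lncRNAs. The lncRNA values have a minimum of 1 and were read as log2(TPM + 2), since this minimum then stands for 0 TPM. Both offsets leave the differences between library totals the same. TPM do not give the reads behind a value.

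TPM were recovered and fitted with limma 3.58.1 (R 4.3.3, mean-variance trend) on log2(TPM + 1) over all 9 libraries, separately for mRNAs and lncRNAs above 0.1 TPM in at least 1 library, with Benjamini-Hochberg adjustment. The code was tested on simulated data. Shares were compared by exact permutation (scipy 1.17.1). DESeq2, which the study used, needs counts and was not run. Each library is 1 hen, so the spread is between hens. Symbols and positions came from the study's list of transcripts, of which the first 1998 mRNAs in order of identifier were used. They were not chosen by expression, but they do not cover the chromosomes evenly. The members and gene lists were chosen with earlier results of these data known.

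Named were the 15 mRNAs with a symbol that rose and fell most among those called without overlap, 3 each way by identifier, 6 lncRNAs each way, the 10 most abundant and the 10 largest gains and losses, up to 3 called members each way of each list, and all markers. Of the transcripts the study followed by qPCR, the lncRNAs, STAR, TTYH3 and TRAF1 were named. Of a list of 10 genes named by the study only 3 had a symbol among the mRNAs used. PDGFA, which the study also names, was not in that list. Other list members are given as comparisons and were chosen after their values were seen. Promoter motifs were not searched.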

Additional observations from a re-analysis of the deposited data

How the results depend on the processing

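Counts of called transcripts stayed within 1.5 times of 3465 mRNAs and 1541 lncRNAs under the scalings, filters, covariate, variance models and left-out libraries tried, with these exceptions. Without a fold threshold 6638 mRNAs and 2423 lncRNAs passed, and with a pseudocount of 0.1 in place of 1 the lncRNA count was 2474 (mRNAs 4454). Leaving out each library in turn gave 3427 to 3506 mRNAs and 1308 to 1628 lncRNAs. The share of the 10 most abundant transcripts then changed by -10.64 to -7.96 percentage points, that of the 100 most abundant by -9.99 to -7.03, and 27.1 to 28.6% of TPM changed hands. Read with an offset of 1 in the lncRNA table, the changes were -9.49 and -8.69 points. Replicate numbers did not pair the hens (correlation of same-numbered deviations -0.19 to 0.07). With the replicate number as a block 3466 mRNAs and 1488 lncRNAs were called. Of 148 named transcripts that were called, 139 kept their call without ZT12 replicate 3 and ZT20 replicate 3, an alternative added after the data were seen, and at least 142 under the other settings. Low values are limited by depth, but TPM do not give the reads behind them.

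Log2 fold changes changed sign for 10 named genes, none of them called. After quantile normalization they were 0.43 for ZP3, -0.0686 for ZP2, -0.0889 for KLHL10 and 0.34 for ENSGALG00000010237. With GC content as a covariate they were 0.0751 for ENSGALG00000035506 and 0.0485 for ENSGALG00000051598, and with median ratio scaling -0.0231 for ENSGALG00000041143. Without both libraries numbered 3 they were -0.0277 for KCNMB1, -0.14 for KLHL10 and 0.13 for ENSGALG00000006876. With libraries left out PER3 ranged from -0.28 to 0.0101, KCNMB1 from -0.0277 to 0.46, ZP2 from -0.0122 to 0.0522, KLHL10 from -0.14 to 0.26, ENSGALG00000006876 from -0.26 to 0.13 and ENSGALG00000041143 from -0.0623 to 0.12. The cause was not tested.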
